A study of Mus musculus with 4 samples.

Results

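The genes described here are 9 that encode proteins of the Z-disc of heart muscle or close relatives of such proteins: Actn2, the PDZ-LIM genes Ldb3, Pdlim1, Pdlim3, Pdlim4, Pdlim5 and Pdlim7, Sorbs2, and Nebl. They were taken by symbol from a count table, as 9 of 21552 genes, and from a table of alternative exons and splice sites, as 98 of 124326 events. The study compared the remote area of infarcted hearts from 2 mice, myocardium away from the infarct, with hearts of 2 uninjured mice, sampled on day 7 as the sample codes give it. All mice were C57BL/6, infarcts came from permanent closure of the left anterior descending artery, and the source label of all 4 samples names the remote area. No transgene or drug is named in the labels, and the sources used here name neither sex nor age.

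The Z-disc is the plate that anchors the actin filaments of neighbouring sarcomeres, and alpha-actinin, the product of Actn2 in heart muscle, crosslinks those filaments there. PDZ-LIM proteins bind alpha-actinin through an N-terminal PDZ domain. Long forms carry LIM domains at the C-terminus that bind protein kinases, and several of the genes also make short forms that end before the LIM domains. Sorbs2 encodes a sorbin and SH3 domain scaffold of Z-discs and cell adhesions, and Nebl encodes nebulette, a nebulin relative that lies along actin next to the Z-disc.

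Of the 9 genes, 5 rose in infarcted hearts (Sorbs2, Pdlim5, Pdlim7, Pdlim1 and Pdlim3), 1 fell (Nebl), and Actn2, Ldb3 and Pdlim4 did not pass the test. The calls used edgeR's quasi-likelihood test on counts with Benjamini-Hochberg adjustment over 13905 genes and an adjusted p below 0.05, which called 18.3% of all genes higher and 14.6% lower. The median log2 fold change, infarcted over uninjured, was 0.69 over the 9 genes and 0.02 over all genes tested. In Pdlim5, Pdlim7 and Ldb3, reads over an exon of the LIM-containing forms, past their split from the short forms, were set against an upstream exon event. Reads that skip an exon were counted too. The ratio was higher in both infarcted libraries than in either uninjured one. In Pdlim7 the size of the gap depended on the exon used for comparison. A test of reads at the last against the first exon event called Pdlim5 and Ldb3 but not Pdlim7, and both calls were lost without uninjured replicate 2 and with the replicate number as a block. No alternative exon or splice site of the 9 genes passed the event test. On simulated data that edgeR event test made no calls even on large shifts, so this does not show that exon use was unchanged.

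The libraries held 35715115 to 46232326 counts in infarcted hearts and 53944859 to 70885393 in uninjured hearts, of which genes of the mitochondrial genome took 36.7% to 42.0% and 41.4% to 48.4%. Mice of one group varied by a common coefficient of 19.3% (edgeR), and p-values here measure only the spread between 2 mice per group. The tissue label was checked with marker lists. All 7 cardiomyocyte markers were detected, and their summed level (CPM, counts scaled to TMM library sizes) was 31331 and 27870 in infarcted libraries, against 47563 and 58062 in uninjured ones. Of the 7, 4 were called lower: Tnni3, Myl2, Pln and Tnnt2, at log2 fold changes of -1.47, -1.37, -1.15 and -0.80. Myh6, Actc1 and Ryr2, at -0.61, -0.51 and -0.20, were not called, and the groups overlapped in Ryr2. Fibroblast markers summed to 6643 and 5559 CPM in infarcted libraries and 772 and 738 CPM in uninjured ones, and macrophage markers to 268 and 294 CPM against 116 and 92.2 CPM. The fibroblast markers moved unevenly. Postn, Col1a1, Col3a1 and Lum were called higher, at log2 fold changes of 5.34, 4.28, 3.90 and 1.76. Dcn, Pdgfra and Tcf21, at 0.66, 0.63 and 0.31, were not called. Infarcted replicate 2 stood apart in atrial markers, with 1948 CPM against 295 CPM in infarcted replicate 1, and 88.6 and 49.4 CPM in uninjured libraries. It had 361 CPM of Myl4, the atrial light chain, against 1.34 CPM in infarcted replicate 1. Fewer cells of a type and less RNA per cell cannot be told apart in bulk tissue.

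**Figure D1:**
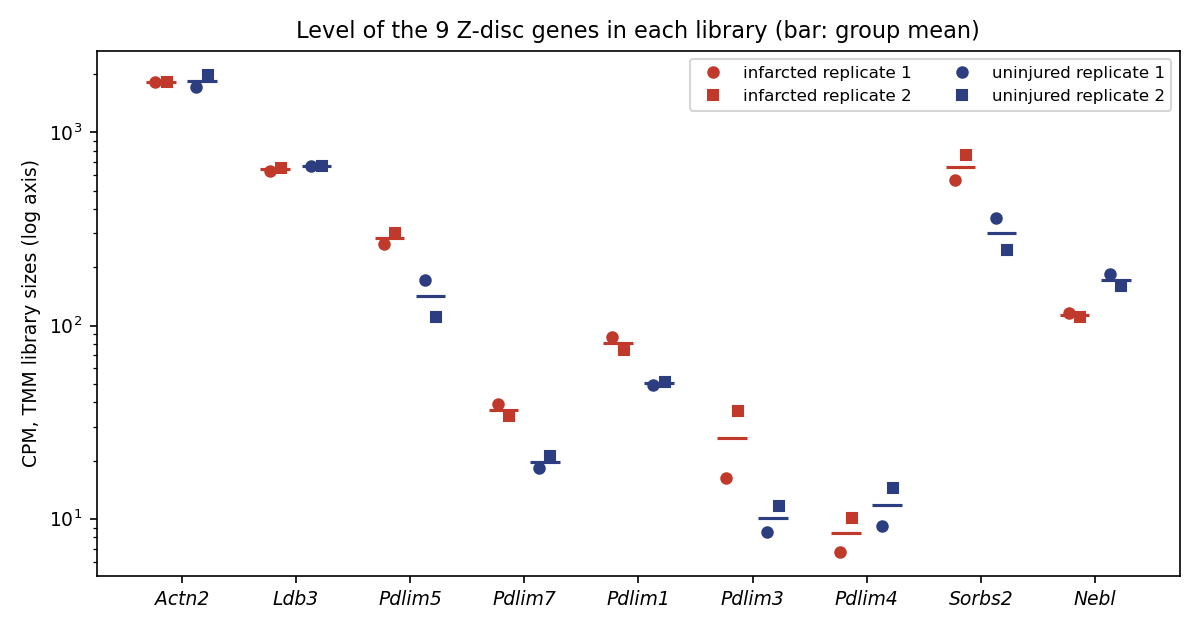
Level of each of the 9 genes in each library, in CPM on TMM library sizes (log axis); red symbols on the left of each gene are infarcted libraries, blue symbols on the right uninjured ones, and bars are group means. Sorbs2, Pdlim5, Pdlim7, Pdlim1 and Pdlim3 lie above both uninjured libraries, and Nebl and, by a small margin, Ldb3 lie below.

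Levels per kb of the longest annotated transcript set the genes in order. Actn2 averaged 605 CPM per kb in infarcted and 614 CPM per kb in uninjured hearts, far above Ldb3 with 126 and 131 CPM per kb. Sorbs2 followed with 103 CPM per kb in infarcted and 47.1 CPM per kb in uninjured hearts, and then Pdlim5 with 56.4 and 28.2 CPM per kb. In infarcted hearts Pdlim1 (28.6 CPM per kb), Nebl (14.1), Pdlim7 (10.3), Pdlim3 (7.37) and Pdlim4 (6.12) came next, and the ranges of Pdlim3 overlapped those of Pdlim7 and Pdlim4. In uninjured hearts the order was Nebl (21.3 CPM per kb), Pdlim1 (17.7), Pdlim4 (8.59), Pdlim7 (5.53) and Pdlim3 (2.86), and the ranges of Pdlim5 and Nebl overlapped. Nebl thus stood above Pdlim1 in uninjured hearts and below it in infarcted ones.

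Actn2, the muscle alpha-actinin (chr13:12269426-12340760, minus strand, GRCm38), had 1816 and 1831 CPM in infarcted hearts and 1707 and 1991 CPM in uninjured hearts. The groups overlapped, and the log2 fold change was -0.02 ± 0.24 (SE, n = 2 per group; edgeR adjusted p = 0.959). The sign of this near-zero change turned with the scaling, to 0.33 on library totals, a scale on which the median of all genes was 0.36. Its exons were used alike: the 5 exon events of Actn2 were included at 99.93% or more in every library.

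Ldb3 (chr14:34526603-34588682, minus strand), which encodes the Z-disc protein Cypher or ZASP, had 630 and 656 CPM in infarcted hearts and 673 and 668 CPM in uninjured hearts. Both infarcted libraries lay slightly below both uninjured ones, as in 33.8% of all genes. The log2 fold change was -0.06 ± 0.22 (edgeR adjusted p = 0.856), and on library totals it was 0.29. The total count of Ldb3 therefore did not separate the groups beyond the spread between mice.

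Pdlim5 (chr3:142239590-142395696, minus strand), which encodes Enigma homolog, had 265 and 301 CPM in infarcted hearts and 172 and 111 CPM in uninjured hearts. The groups did not overlap, with infarcted above uninjured as in 36.2% of all genes. Pdlim5 was 2.00-fold higher, with a log2 fold change of 1.0 ± 0.24 (edgeR adjusted p = 0.00619).

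Pdlim7 (chr13:55495795-55513676, minus strand), which encodes Enigma, had 39.1 and 34.2 CPM in infarcted hearts and 18.4 and 21.2 CPM in uninjured hearts. Its log2 fold change was 0.89 ± 0.19 (edgeR adjusted p = 0.00392), with no overlap between groups. Pdlim1 (chr19:40221173-40271842, minus strand), which encodes CLP36, also found outside muscle, had 87.5 and 74.7 CPM in infarcted hearts and 49.1 and 51.2 CPM in uninjured hearts. Its log2 fold change was 0.69 ± 0.19 (edgeR adjusted p = 0.0120), and again the groups did not overlap. Summed fibroblast and macrophage markers were higher in the same libraries, and their part in the rise of Pdlim1 and Pdlim7 was not tested. Leaving out infarcted replicate 1 ended both calls, with edgeR adjusted p of 0.216 for Pdlim1 and 0.0644 for Pdlim7, and leaving out uninjured replicate 1 ended that of Pdlim1 (0.0570).

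Pdlim3 (chr8:45885461-45919548, plus strand), which encodes ALP, the actinin-associated LIM protein, had 16.2 and 36.0 CPM in infarcted hearts and 8.56 and 11.6 CPM in uninjured hearts. Infarcted replicate 2 was far above the other 3 libraries. The log2 fold change was 1.36 ± 0.40 (edgeR adjusted p = 0.0436), and without infarcted replicate 2 it was 0.65 (adjusted p = 0.120). Over all alternative settings the adjusted p of Pdlim3 ran from 1.51e-07 to 0.221, and it was 0.188 without uninjured replicate 1. Infarcted replicate 2 was highest in summed smooth muscle markers, with 630 CPM against 407 CPM in infarcted replicate 1 and 273 and 354 CPM in uninjured hearts, as well as in the atrial markers given above. Myh11, Cnn1, Tagln and Acta2 were each highest in that library. Smtn went the other way, with 99.7 CPM there, 122 CPM in infarcted replicate 1, and 102 and 115 CPM in uninjured hearts. The part of either cell type in the level of Pdlim3 was not tested.

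Pdlim4 (chr11:54054928-54069014, minus strand), which encodes RIL, was the PDZ-LIM gene with the lowest level in infarcted hearts. It had 6.74 and 10 CPM in infarcted and 9.12 and 14.4 CPM in uninjured hearts. The groups overlapped, and the log2 fold change of -0.49 ± 0.27 did not pass the test (edgeR adjusted p = 0.187).

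The PDZ-LIM genes differ in where their transcripts end. In the annotation (GENCODE M21, GRCm38) Pdlim5, Pdlim7 and Ldb3 each have an exon of 37 nt after which short and long forms part. In short forms it joins an exon that holds the end of the reading frame, and in long forms it joins an exon on the way to the LIM domains. For Pdlim5 the annotation has 5 short coding transcripts with this exon, with 642 to 1011 nt of coding sequence, and 5 long ones with 1446 to 1842 nt. Pdlim7 has 2 short ones (564 and 666 nt) and 1 long one (1371 nt), and Ldb3 has 2 short ones (864 and 981 nt) and 5 long ones (1866 to 2169 nt). The sequences at this point are shown because reads on its 3′ side, relative to reads upstream, did not overlap between the groups. Each line starts with the 37 nt exon in lower case, and the capitals are the coding part of the exon that follows in that form.
Pdlim5 short form: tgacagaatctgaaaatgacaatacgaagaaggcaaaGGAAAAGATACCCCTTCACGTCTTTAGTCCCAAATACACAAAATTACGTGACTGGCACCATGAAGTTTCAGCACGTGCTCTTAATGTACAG
Pdlim5 long form: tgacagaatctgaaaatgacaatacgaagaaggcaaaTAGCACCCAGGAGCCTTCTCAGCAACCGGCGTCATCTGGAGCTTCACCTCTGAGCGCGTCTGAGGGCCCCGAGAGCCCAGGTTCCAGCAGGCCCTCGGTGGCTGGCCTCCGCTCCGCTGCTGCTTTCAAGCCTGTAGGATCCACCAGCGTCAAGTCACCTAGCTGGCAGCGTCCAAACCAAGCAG
Pdlim7 short form: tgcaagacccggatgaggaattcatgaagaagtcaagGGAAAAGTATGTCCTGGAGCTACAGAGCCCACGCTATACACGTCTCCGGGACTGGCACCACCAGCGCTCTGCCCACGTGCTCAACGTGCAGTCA
Pdlim7 long form: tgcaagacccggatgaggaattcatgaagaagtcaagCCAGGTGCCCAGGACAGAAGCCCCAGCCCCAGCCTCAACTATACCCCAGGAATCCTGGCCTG
Ldb3 short form: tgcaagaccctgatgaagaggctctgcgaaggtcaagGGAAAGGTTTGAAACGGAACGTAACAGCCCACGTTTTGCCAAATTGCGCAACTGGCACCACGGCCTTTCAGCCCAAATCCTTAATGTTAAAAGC
Ldb3 long form: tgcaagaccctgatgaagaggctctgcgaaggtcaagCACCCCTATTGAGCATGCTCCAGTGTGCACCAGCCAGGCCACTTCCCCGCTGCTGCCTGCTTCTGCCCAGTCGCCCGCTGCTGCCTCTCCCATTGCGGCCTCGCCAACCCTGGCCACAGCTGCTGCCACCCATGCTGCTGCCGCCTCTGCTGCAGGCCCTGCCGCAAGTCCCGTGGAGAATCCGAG

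The capitals lie at chr3:142303331-142303421 (short) and chr3:142277817-142278001 (long) in Pdlim5, at chr13:55507030-55507123 and chr13:55506306-55506367 in Pdlim7, and at chr14:34561788-34561881 and chr14:34555343-34555528 in Ldb3, all on the minus strand of GRCm38. The 37 nt exons are alike, with 26 of 37 positions identical between Pdlim7 and Ldb3, 22 between Pdlim5 and Pdlim7, and 19 between Pdlim5 and Ldb3. The short-form ends are also alike without any gap, at 53.8% to 58.5% of positions over 91 to 94 nt. The long-form exons were identical at 24.2% to 37.3% of positions in the same ungapped comparison.

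Reads over the long-form exon printed above were set against reads over the nearest exon event on the 5′ side of the split in the same library. Reads over an event are the sum of its inclusion and exclusion reads, so reads that skip the exon count too. In Pdlim7 the 62 nt long-form exon had 54.7% and 43.0% of the reads of the 37 nt exon in infarcted hearts, against 21.1% and 14.8% in uninjured hearts. The 62 nt exon had 111 and 64 reads in infarcted hearts and 27 and 31 in uninjured hearts. A 119 nt exon of Pdlim7 further upstream, on the 5′ side of the split, had 73 and 39 against 21 and 31. The size of the gap in Pdlim7 thus depends on the exon used for comparison. In Ldb3 the 186 nt exon had 54.3% and 55.5% of the reads of a 15 nt event in infarcted hearts, against 34.4% and 19.1% in uninjured hearts. That 15 nt exon was included at only 3.36% to 5.23% over all libraries, and the 186 nt exon at 66.6% to 80.6%. In Pdlim5 the 185 nt exon had 13.2% and 16.5% of the reads of an 18 nt exon in infarcted hearts, against 6.32% and 5.13% in uninjured hearts. Exons of 120, 144 and 132 nt lie between the split and the 185 nt exon of Pdlim5. They were included at 48.1% to 72.6%, from 8 to 100 reads, so the 185 nt exon comes first after the split in only some long forms. In all 3 genes both infarcted libraries were above both uninjured ones. The comparison was made in these 3 genes only, so how often other genes show such a gap was not measured. These shares compare libraries, and are not the share of long forms, since the yield of reads differs between exons.

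A test was made on the whole table, on the reads over the last exon event of a gene against those over its first, for 3357 genes with at least 20 reads at both in every library. This measure was chosen after the values were seen. In Pdlim5 and Pdlim7 its last event is the same long-form exon, with the same reads, as in the comparison above, so the test is not independent of it. In Pdlim5 the last event, the 185 nt exon, had 136 and 140 reads in infarcted hearts and 41 and 26 in uninjured hearts. These were 11.4% and 11.3% of the reads of the first event in infarcted hearts, against 4.62% and 3.86% in uninjured hearts. The log2 ratio, infarcted over uninjured, was 1.41 ± 0.18 (edgeR adjusted p = 0.0122), and with the replicate number as a block it was no longer called (edgeR adjusted p = 0.0779). By the plain ratio of geometric group means Pdlim5 ranked the third highest of the 3357 genes.

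For Ldb3 the last event, a 445 nt exon of the long forms, had 30.3% and 31.0% of the first event's reads in infarcted hearts, against 19.0% and 10.7% in uninjured hearts. The log2 ratio was 1.10 ± 0.22 (edgeR adjusted p = 0.0432), and the block ended this call too (edgeR adjusted p = 0.122). Pdlim7 had 173% and 105% in infarcted hearts, against 61.4% and 46.3% in uninjured hearts, from 27 to 111 reads at either end. Its log2 ratio of 1.40 ± 0.33 missed the threshold (edgeR adjusted p = 0.0672). The first event of Pdlim7, a 258 nt exon, was included at 0% in every library, so the reads there all skip that exon.

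Across genes this ratio moved the other way, with a median log2 value of -0.22. The median gene had 123% in both infarcted libraries, against 138% in uninjured replicate 1 and 152% in uninjured replicate 2, and infarcted libraries were above both uninjured ones in 6.43% of genes and below both in 43.1%. The test called 0.0894% of genes higher, 3 in all, among them Pdlim5 and Ldb3, and 1.52% lower. Actn2 went with the general direction. Its last event had 107% and 106% of the first event's reads in infarcted hearts and 152% and 215% in uninjured hearts, a log2 ratio of -0.76 ± 0.16 that missed the threshold (edgeR adjusted p = 0.0510). For Sorbs2, Pdlim4 and Nebl the log2 ratios were -0.58, -0.16 and 0.02, and none was called. Uninjured replicate 2 weighed on these calls: without it edgeR called no gene of the 3357, 28 higher and 301 lower had an unadjusted p below 0.05, and Pdlim5 stood at 1.30 and Ldb3 at 0.69 (edgeR adjusted p = 0.157 for both). The call of Ldb3 was also lost without infarcted replicate 1 (adjusted p = 0.0586), and Pdlim7 passed without infarcted replicate 2 (log2 ratio 1.72, adjusted p = 0.0246).

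**Figure D2:**
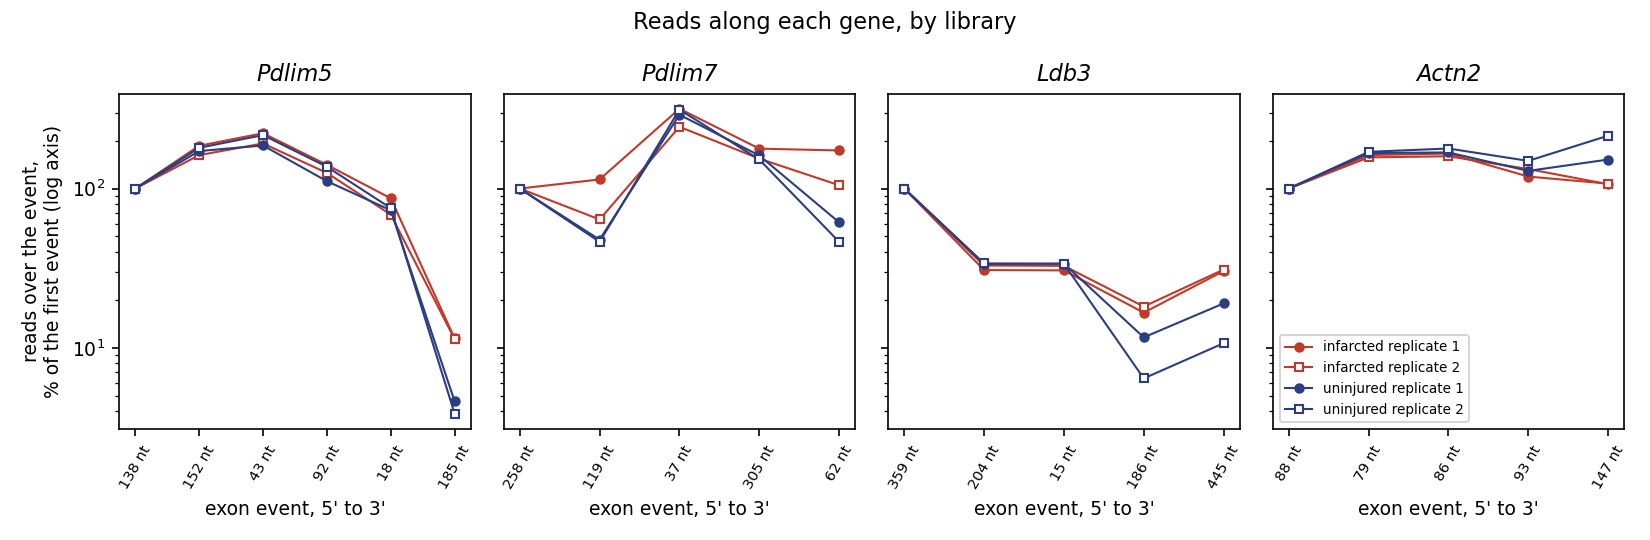
Reads over each exon event of Pdlim5, Pdlim7, Ldb3 and Actn2 from 5′ to 3′, including reads that skip the exon. Values are a percent of the reads over the gene's first event in the same library (log axis). Red lines are infarcted and blue lines uninjured libraries, labelled by exon length. The lines run together up to the split and part at the last exon of Pdlim5 (185 nt) and Pdlim7 (62 nt) and the last pair in Ldb3 (186 and 445 nt), with infarcted above, whereas infarcted is below at the last exon of Actn2 (147 nt); in Pdlim7 the 119 nt exon also lies higher in infarcted libraries.

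The Pdlim7 exon events include the short-form end itself. A 305 nt exon (chr13:55608180-55608484, mm9, the build of the event table) starts 206 nt after the 37 nt exon, and so does the last exon of the short form printed above on GRCm38. It was included at 33.8% and 49.0% in infarcted hearts, against 63.1% and 72.7% in uninjured hearts, from 71 to 114 reads per library. The 95% Wilson intervals, which cover counting error only, were 26.1% to 43.3% and 39.1% to 58.9% in infarcted hearts and 51.8% to 73.6% and 63.2% to 80.3% in uninjured hearts. The difference between group means was -26.5 points, and it did not pass after adjustment (edgeR interaction test, adjusted p = 0.692). A 17 nt exon of Pdlim7 further upstream had 64.2% and 69.5% inclusion in infarcted hearts and 81.4% and 86.8% in uninjured hearts, from only 14 to 41 reads.

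Over the event table, 98 rows belong to 8 of the genes, and Pdlim1 has none. Of the 98 rows, 12 are mirror images of another row of the same splice site, and 77 of the other 86 had at least 10 reads in every library. Tests were run on 37 events, 31 exons and 6 splice sites, in which each form also had at least 5 reads over all libraries. Among all exon events of the 9 genes with at least 10 reads in every library, tested or not, 33 were included at 95% or more in every library, 15 of them in Nebl, and 5 at 5% or less. In 16 of the 37 events the groups did not overlap, against 39.9% of all exons tested and 35% of all splice sites tested. In 5 exons of Pdlim3, Pdlim5 and Pdlim7 the group means were also at least 10 points apart, as in 12.9% of all exons. None of the 37 was called by edgeR, with 8 at an unadjusted p below 0.05 (over all events, 7.05% of exons and 5.47% of splice sites), and none by limma, DESeq2 or a quasi-binomial test added later, with 4, 3 and 11 at an unadjusted p below 0.05. In the whole table edgeR called 0% of 5490 exons and 0.0324% of 3091 splice sites. On simulated data this edgeR test made no calls even on large shifts, so the missing calls do not show unchanged exon use.

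In Pdlim3 a 188 nt exon, and the pair of a 68 nt and a 264 nt exon, stand in for each other in annotated transcripts, and muscle types are known to differ in this choice. The 188 nt and 68 nt exons are printed because their inclusion lay apart in opposite directions. Capitals mark the exon, at chr8:45908469-45908656 and chr8:45909019-45909086 on the plus strand of GRCm38, and lower case the 24 nt on each side in the transcript.
Pdlim3 188 nt exon: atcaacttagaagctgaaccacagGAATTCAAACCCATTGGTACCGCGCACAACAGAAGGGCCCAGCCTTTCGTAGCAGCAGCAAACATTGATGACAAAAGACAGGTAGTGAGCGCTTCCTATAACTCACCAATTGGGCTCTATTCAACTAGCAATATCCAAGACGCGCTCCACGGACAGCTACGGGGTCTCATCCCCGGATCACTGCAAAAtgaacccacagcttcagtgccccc
Pdlim3 68 nt exon: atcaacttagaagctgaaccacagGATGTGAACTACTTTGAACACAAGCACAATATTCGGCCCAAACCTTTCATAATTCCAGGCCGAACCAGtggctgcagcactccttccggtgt

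The 188 nt exon was included at 85.5% and 92.1% in infarcted hearts, against 73.7% and 71.4% in uninjured hearts, from 33 to 145 reads (edgeR interaction test, adjusted p = 0.692). The 68 nt exon was at 10% and 6.38% in infarcted hearts, against 40% and 20% in uninjured hearts, from 14 to 75 reads (adjusted p = 0.692 in the same edgeR test). The groups did not overlap for either exon, but the Wilson interval of the 68 nt exon in uninjured replicate 1 spanned 21.4% to 67.4%. The atrial and smooth muscle markers of infarcted replicate 2, given above, stand beside these values too, and their part was not tested.

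Pdlim5 carries small exons between its PDZ-coding part and the split. An exon of 15 nt (chr3:142306284-142306298, GRCm38, minus strand) was included at 75.0% and 65.5% in infarcted hearts, from 987 and 785 reads, with Wilson intervals of 72.3% to 77.7% and 62.1% to 68.7%. The event table holds no value for this exon in uninjured hearts, so no comparison was made. The neighbouring 18 nt exon was included at 99.7% and 100% in infarcted and 99.8% and 100% in uninjured hearts. The 15 nt exon is printed in capitals, with 24 nt of the transcript on each side.
Pdlim5 15 nt exon: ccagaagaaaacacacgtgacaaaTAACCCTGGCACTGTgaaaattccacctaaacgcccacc

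A 120 nt exon of Pdlim5 (chr3:141947761-141947880, mm9) was included at 57.8% and 62.6% in infarcted hearts and 68.5% and 72.6% in uninjured hearts, from 13 to 89 reads. The groups did not overlap, and the edgeR interaction test gave an adjusted p of 0.888. A distant 3′ splice site of Pdlim5, which adds 327 nt, was used in 1.87% and 0.85% of reads in infarcted hearts and 0.38% and 0.42% in uninjured hearts (edgeR adjusted p = 0.822). The 92 nt exon at the same place was included at 98.2% to 99.7% in all libraries. In Ldb3 the 359 nt exon, the first event of the gene, was included at 97.5% and 98.3% in infarcted hearts, against 95.4% and 93.4% in uninjured hearts, from 1863 to 3926 reads (edgeR adjusted p = 0.692). The other 4 Ldb3 exon events overlapped between groups.

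Sorbs2 (chr8:45507788-45827906, plus strand) rose in infarcted hearts with the second largest fold change of the 9 genes. It had 569 and 761 CPM in infarcted hearts and 360 and 246 CPM in uninjured hearts, without overlap. The log2 fold change was 1.14 ± 0.25 (edgeR adjusted p = 0.00451), or 2.20-fold. Set against Actn2 in the same library, which needs no scaling between libraries, Sorbs2 had 31.3% and 41.6% of the counts of Actn2 in infarcted hearts and 21.1% and 12.3% in uninjured hearts. Sorbs2 overlaps 6 annotated gene entries, antisense genes among them, and the sources used here do not say if the libraries are stranded.

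In 5 of the 12 tested events of Sorbs2 the groups did not overlap, close to the 39.9% of exons and 35% of splice sites over the whole table, and none of the 12 passed the test. A 45 nt exon (chr8:45770546-45770590) was at 96.3% and 96.4% in infarcted and 99.4% and 99.1% in uninjured hearts, and it had the smallest p of all 37 events (edgeR adjusted p = 0.692). A 57 nt exon (chr8:45785269-45785325) was at 83.2% and 79.2% in infarcted and 88.9% and 90.8% in uninjured hearts, from 166 to 587 reads. Neither was called, and neither pair of groups overlapped. Both exons hold a multiple of 3 nt and are printed in capitals with 24 nt of the transcript on each side.
Sorbs2 45 nt exon: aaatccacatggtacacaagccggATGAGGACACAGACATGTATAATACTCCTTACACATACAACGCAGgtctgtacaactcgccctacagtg
Sorbs2 57 nt exon: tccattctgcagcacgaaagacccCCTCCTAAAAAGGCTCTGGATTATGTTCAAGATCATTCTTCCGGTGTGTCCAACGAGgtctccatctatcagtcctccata

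A 159 nt exon of Sorbs2 was at 90.7% and 87.4% in infarcted and 93.9% and 94.1% in uninjured hearts, and a 30 nt difference in a 3′ splice site at 91.5% and 89.2% against 94.3% and 93.9%. A 1581 nt exon of Sorbs2, by far its longest event, was used at 0.19% or less in every library. No read included it in infarcted replicate 2 (245 reads) or in the uninjured libraries (123 and 89 reads), which allows a share of up to 1.22%, 2.44% and 3.37% from 3 counts of the total.

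Nebl (chr2:17343909-17731464, minus strand) fell in infarcted hearts. It had 117 and 111 CPM in infarcted hearts and 184 and 159 CPM in uninjured hearts, without overlap. The log2 fold change was -0.60 ± 0.20 (edgeR adjusted p = 0.0325). Relative to Actn2 in the same library, Nebl had 6.43% and 6.04% of the counts in infarcted hearts and 10.8% and 8.0% in uninjured hearts. The call did not hold on library totals, where the log2 fold change was -0.25 (adjusted p = 0.350), nor without any single library in edgeR (adjusted p of 0.0692 to 0.183). An antisense gene overlaps Nebl, and its reads cannot be told apart here.

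Of the 26 exon events of Nebl, 15 were included at 95% or more in every library. A 93 nt exon had 93.2% and 92.3% in infarcted hearts and 100% in both uninjured hearts, and its neighbour of 150 nt had 95.8% and 94.9% against 100% in both. Each of these differences rests on 4 skipping reads in each infarcted library and none in the uninjured ones, from 50 to 133 reads, and the edgeR adjusted p was 0.692 for both. A 105 nt exon had 20.8% in infarcted replicate 1 and 63.6% in infarcted replicate 2, against 55.0% and 54.1% in uninjured hearts, so that the infarcted libraries lay on either side of the uninjured ones. With 27 to 62 reads, their Wilson intervals were 11% to 38.8% and 44.2% to 78.5% in infarcted hearts.

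**Figure D3:**
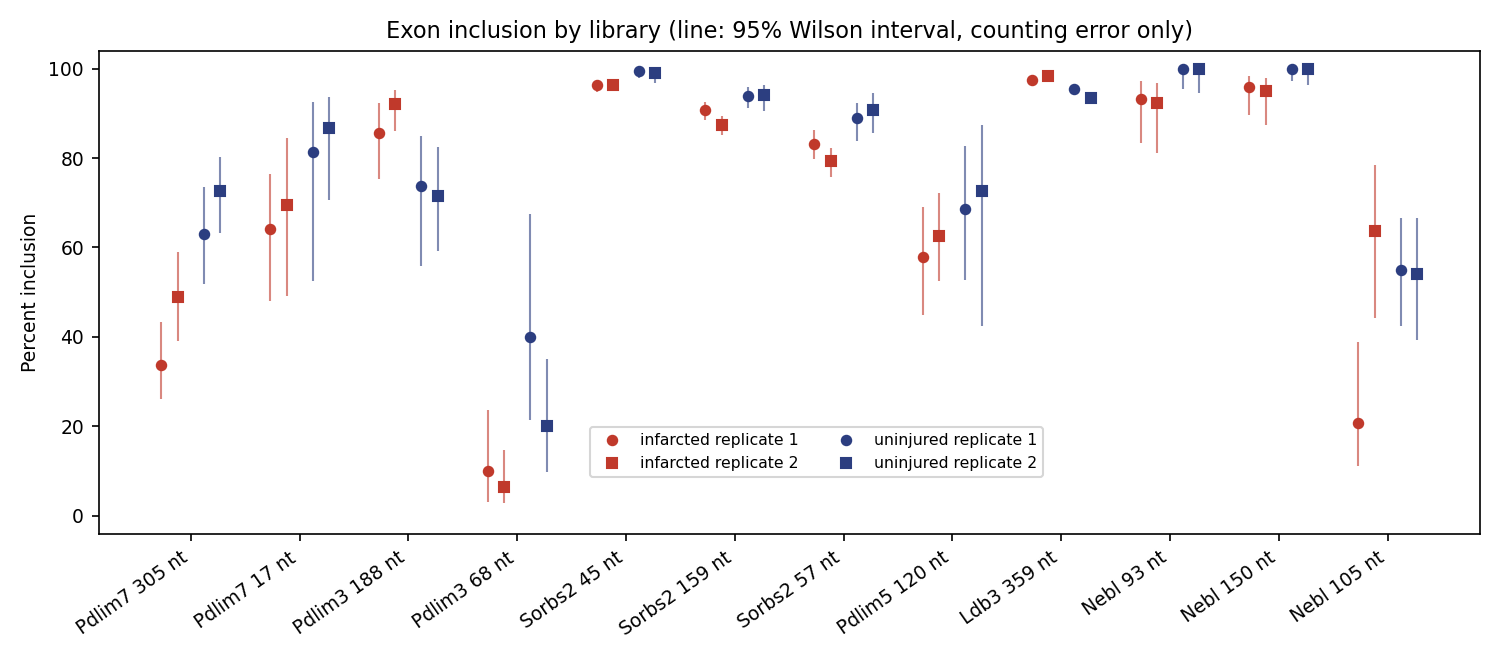
Percent inclusion of 12 exons of the genes in each library, red for infarcted and blue for uninjured, with 95% Wilson intervals as lines (counting error only). The groups do not overlap in the first 11 exons, the group means lie farthest apart in Pdlim7 (305 nt) and Pdlim3 (68 nt), and in the 105 nt exon of Nebl the uninjured libraries lie between the infarcted ones; none of the exons passed the test after adjustment.

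Relatives of the 9 genes were also tested, as a list chosen with earlier results of these data known. Of 8 other family genes tested, 5 rose and none fell, against 18.3% of all genes called higher and 14.6% lower. Without uninjured replicate 2 edgeR called 1 of the 8 higher, and without infarcted replicate 2 DESeq2 called 3. Actn1, a non-muscle alpha-actinin of focal adhesions and stress fibres, had the largest log2 fold change, 2.47 ± 0.20 (edgeR adjusted p = 3.43e-06), with 93.1 and 109 CPM in infarcted and 19.0 and 17.3 CPM in uninjured hearts. Actn4, the other non-muscle form, was at 1.48 ± 0.20 and Sorbs3 (vinexin) at 0.95 ± 0.21. Lasp1, a LIM and SH3 protein, was at 0.94 ± 0.19, and the fifth, Neb (nebulin), was at 1.18 ± 0.27. Actn1 and Actn4 are expressed in fibroblasts and other non-muscle cells. Summed fibroblast and macrophage markers were higher in the same libraries. Of 5 endothelial markers none was called, with a median log2 fold change of -0.08. The part of any of these cells was not tested. The other 3 tested did not pass, and Actn3 had too few counts to be tested.

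Of 19 other Z-disc genes tested of 20 listed, 5 rose, 1 fell and 13 did not pass, with a median log2 fold change of -0.11. Over all genes 18.3% were called higher and 14.6% lower. The 4 with the smallest p among those that rose were Synpo2l (1.98 ± 0.26), Flnc (filamin C, 1.51 ± 0.23), Capza1 (a capping protein subunit, 0.94 ± 0.19) and Palld (palladin, 1.0 ± 0.21). Tcap, or telethonin, which caps titin at the Z-disc, fell, with 339 and 516 CPM in infarcted and 811 and 1189 CPM in uninjured hearts and a log2 fold change of -1.23 ± 0.27 (edgeR adjusted p = 0.00487).

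**Figure D4:**
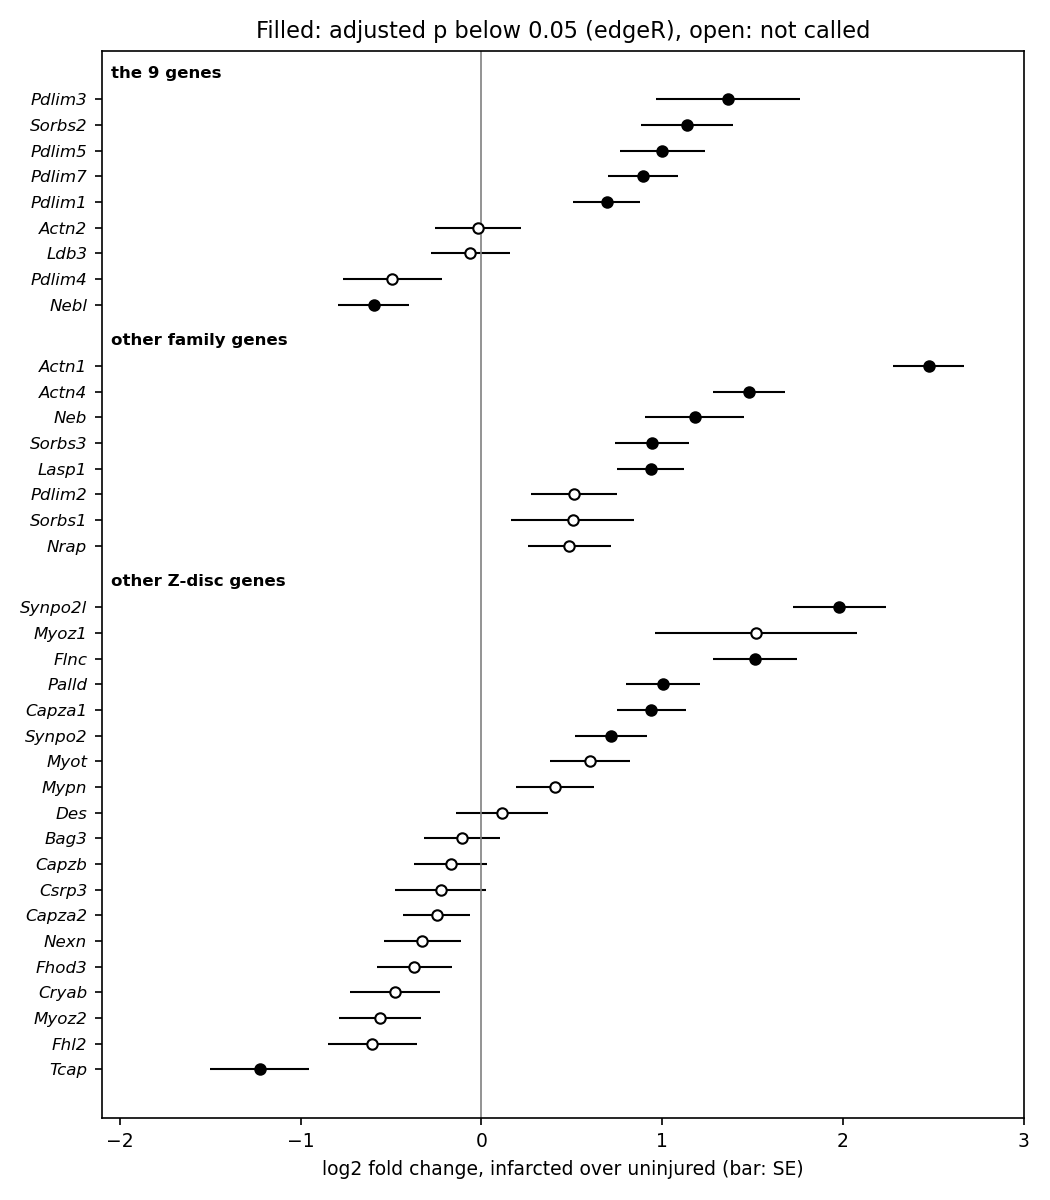
Log2 fold change, infarcted over uninjured, with its SE, for the 9 genes and for the tested genes of both lists (filled points passed an edgeR adjusted p of 0.05, open points did not). The 9 genes range from -0.60 (Nebl) to 1.36 (Pdlim3), and Actn1 at 2.47 and Tcap at -1.23 are the ends of the plot.

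The pattern over the 4 libraries was compared among 35 other genes of these lists, by distance of the centred log2 CPM. Pdlim5 and Sorbs2 both lay nearest to Neb, at distances of 0.21 and 0.18, against medians of 1.05 and 0.99 to the whole pool. Pdlim7 lay nearest to Lasp1 (0.17), Pdlim1 to Pdlim7 (0.23), Nebl to Nexn (0.29) and Pdlim3 to Myoz1 (0.53). Myoz1 had only 9 to 28 counts per library, so its pattern rests on few reads. With 4 libraries such distances only describe the values.

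The gene calls depended on single libraries. In edgeR none of the 9 genes was called without uninjured replicate 2, although 6 had an unadjusted p below 0.05, and 102 genes were called higher and 8 lower in all, whereas DESeq2 without the same library called 4 of them higher and 1 lower. The fold changes of the 6 called genes kept their sign in every such fit. Uninjured replicate 2 also had the lowest CPM of Pdlim5 and Sorbs2. Transcript length moved with the comparison as well: the median log2 fold change was -0.63 for transcripts up to 700 nt and 0.27 above 6000 nt. A trend in the same direction ran between the uninjured libraries, replicate 1 minus replicate 2, with medians of -0.45 and 0.22 in these classes, whereas the medians between the infarcted libraries were -0.0035 and -0.043. With the trend over transcript length removed, Sorbs2, Pdlim5, Pdlim7 and Pdlim1 were still called higher and Nebl lower, and Pdlim3 had an edgeR adjusted p of 0.0669.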

How the data were processed

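Per the labels' protocols, polyadenylated RNA of 4 hearts was read on a GAII, single-end, with 50 bp per read. The authors deposited raw counts per Ensembl gene, which are not normalized, and a table with the percent inclusion of exons and splice sites, beside corrected inclusion and exclusion reads. The build is mm9, per the submitters' processing notes; the sources used here do not name the aligner, counter, annotation release, event tool or strandedness. Reads shared with an overlapping gene on either strand, or with a paralog, leave the gene's count uncertain.

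Symbols, transcript structures and sequences came from GENCODE M21 (GRCm38). Event exons were matched to it by exon and flanking intron length, without converting coordinates: of 69 exons of the 9 genes, 33 matched with both introns, 11 with one, and 25 were not matched. Counts were tested in edgeR 4.0.16 (R 4.3.3) with TMM, filterByExpr, robust dispersions and the quasi-likelihood test; the fit has 2 residual degrees of freedom among mice and borrows spread across genes. SE of a log2 fold change is its size over the square root of F. Event reads, rounded to whole numbers, were tested with edgeR's form-by-group interaction and a term per library, with at least 10 reads in every library and 5 of each form. Inclusion and exclusion reads were summed at the last and at the first exon event. The last was tested against the first the same way, without the form minimum. Wilson intervals use rounded reads at a level of 95%; they and limits of 0, taken as 3 counts, cover counting error only. The tests were tried on simulated data, where edgeR's event test made no calls even on large shifts, and a quasi-binomial test was added for that reason.

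The 9 genes and all gene and marker lists were chosen with earlier results of these data known. All 9 genes were named; of the lists, called genes with the smallest p, up to 4 a direction; of the events, the 12 tested with the smallest p and those whose groups did not overlap with means at least 10 points apart. Alternatives were other size factors, library totals, no filter, DESeq2 1.42.0, limma 3.58.1, removal of the length trend, the replicate block and leaving out each library. The DESeq2 fits that leave out a library, the quasi-binomial test and the ratio of last to first event were added after the data were seen.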

Additional observations from a re-analysis of the deposited data

How the results depend on the processing

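Over all settings tried, 112 alternative values of the 9 log2 fold changes kept direction and side of the threshold, 26 lost the call and 6, all of Ldb3 or Actn2, changed sign. The 199 differences in percent inclusion kept direction and stayed uncalled, and the count of called events was 0 in every setting. On library totals, where the median of all genes was 0.36, Ldb3 was at 0.29 and Actn2 at 0.33, 0 of the 9 genes fell, and 8 other Z-disc genes rose. With the length trend removed Actn2 was at 0.0033, and at 0.0052 with the replicate block as well; in both, 2 other Z-disc genes fell, and 3 fell in DESeq2. Leaving out 1 library, the number of the 9 genes that rose ranged from 0 to 4 and that fell from 0 to 1, other Z-disc genes that rose from 0 to 6 and that fell from 0 to 4, and the log2 fold change of Actn2 was -0.13 without uninjured replicate 1 and 0.087 (edgeR) and 0.069 (DESeq2) without uninjured replicate 2, within -0.17 to 0.087. The log2 ratio of last to first event reads changed sign for Nebl (-0.28 without infarcted replicate 1, -0.16 without uninjured replicate 1; range -0.28 to 0.31) and Pdlim4 (0.17 without uninjured replicate 2; range -0.38 to 0.17). For Actn2 it passed in the quasi-binomial test (-0.80) and without uninjured replicate 1 (-1.01). The cause was not tested.

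Replicate numbers shared by the groups are not stated to pair mice, and same-numbered libraries deviated together with r = 0.08 across genes. With the replicate block 5 of the 9 genes rose and 1 fell, as without it; 7 other Z-disc genes rose, against 5. The block ended the last-to-first calls of Pdlim5 (1.41, edgeR adjusted p = 0.0779) and Ldb3 (1.10, 0.122). Low reads limit the exons of Nebl, Pdlim3 and Pdlim7, where 1 library's Wilson interval spanned up to 46.0 points.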
